A study of Mus musculus with 6 samples.

Results

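Smoc1 and 8 other secreted proteins that bind or modulate bone morphogenetic proteins (BMPs) were followed in mouse forelimb bud ectoderm with and without Sp8, a zinc finger protein of the Sp family that acts there as a transcription factor. The 9 genes, Smoc1, Smoc2, Grem1, Nog, Chrd, Chrdl1, Bmper, Fst and Twsg1, were found by symbol among the 49452 genes of the deposited table. Smoc1 was the reason for the choice, because its level was far higher in Sp8 null than in wild-type ectoderm in this same comparison. Its difference is therefore given as a description with no test. The other 8 genes were listed by name as secreted BMP antagonists or modulators, with results of these data already known.

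RNA was sequenced from 3 Sp8 null and 3 wild-type embryos at E10.5, and each library came from the trypsin-freed ectoderm of both forelimb buds of 1 embryo. The null embryos carried the Sp8-Cre-ERT2 allele on both chromosomes and came from crosses between heterozygous Sp8+/- mice, while the wild-type embryos came from crosses within the C57BL/6 inbred strain. All 6 libraries are labelled with the C57BL6J background. Genotype and cross therefore cannot be told apart, and no tissue other than forelimb ectoderm was sampled. Levels are in FPKM, fragments scaled to transcript length and to the mapped fragments of each library, so levels can be compared between genes.

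BMPs are secreted signals that bind pairs of type I and type II receptors on the cell surface, which phosphorylate Smad1, Smad5 and Smad9, and these enter the nucleus with Smad4 to change transcription. Antagonists outside the cell bind the ligand and keep it from its receptors. In the limb bud, BMPs from the ectoderm and its apical ridge act in dorsoventral patterning and in the formation and regression of the ridge, and Gremlin 1 from the mesenchyme below protects the ridge from BMPs. SMOC1 and SMOC2 are matrix-associated calcium-binding proteins of the SPARC family that bind heparan sulfate proteoglycans and can inhibit BMP signalling, and loss of SMOC1 in humans causes a syndrome of eye and limb malformations.

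The RefSeq table of stretches before gene starts (GRCm38.p6) held 4 of the 9 genes, Grem1, Twsg1, Chrd and Bmper. The stretches of Grem1 and Twsg1 are shown because they are the 2 of these that reached 1 FPKM, and because the factor removed here belongs to the Sp family, whose members are known to bind the GC box. Capitals mark the GC box, GGGCGG or its reverse complement CCGCCC. Grem1 is shown for chr2:113758649-113758898 on the minus strand, and Twsg1 for chr17:65951227-65951437 on the minus strand, each 5′ to 3′ on the strand of the gene.
Grem1: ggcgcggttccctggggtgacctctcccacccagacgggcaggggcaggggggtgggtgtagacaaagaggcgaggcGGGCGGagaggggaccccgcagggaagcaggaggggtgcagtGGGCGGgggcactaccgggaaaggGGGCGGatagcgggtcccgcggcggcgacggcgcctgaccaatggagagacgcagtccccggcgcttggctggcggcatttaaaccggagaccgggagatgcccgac
Twsg1: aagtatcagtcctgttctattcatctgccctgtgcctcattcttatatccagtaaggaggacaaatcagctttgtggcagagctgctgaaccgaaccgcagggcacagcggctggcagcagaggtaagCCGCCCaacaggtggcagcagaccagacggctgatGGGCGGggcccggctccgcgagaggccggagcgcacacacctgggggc
The printed Twsg1 stretch has 211 bases, because the gene model of GENCODE starts before that of RefSeq, and the counts below are over all 250 bases before the RefSeq start. There Grem1 held 3 GC boxes, Twsg1 held 2, Chrd held 4 and Bmper held 1. On either strand, 32.74% of 32851 stretches of 250 bases held at least 1. The TATA box TATAAA was in none of the 4 and in 12.37% of all stretches. The palindrome GGCGCC, a BMP-responsive Smad element, was found once each in Grem1 and Chrd and in 9.59% of all stretches. The 4 stretches were 64.4% to 78.0% G and C, against a median of 52.4% over all stretches. A match describes the letters only, and nothing in these data measures binding there.

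The genotype labels were checked on Sp8 itself, which ranged from 0.46 to 1.14 FPKM over the Sp8 null libraries and from 8.35 to 13.5 FPKM over the wild-type ones. Every library followed its label. Between 11835 and 12245 genes per library reached 1 FPKM, and 12133 genes that reached 1 FPKM in 3 or more libraries were tested with limma on log2(FPKM + 1). Of these, 829 differed at a Benjamini-Hochberg adjusted p under 0.05, which is 6.83% of tested genes, with 1.68% higher and 5.15% lower in Sp8 null. Higher genes were 24.6% of calls, 37.2% under median-of-ratios scaling and 41.7% under upper-quartile scaling. All 13 surface ectoderm markers listed, among them Krt5, Cdh1, Epcam and Trp63, reached the filter in these libraries. Sp8 null embryo 2 stood apart in limb mesenchyme markers, with a summed level of 177 FPKM over 13 genes against 46.5 to 89.9 FPKM in the other 5 libraries. Wild-type embryo 1 stood apart in erythroid markers, at 422 FPKM over 7 genes against 11.7 to 162 FPKM elsewhere. For Smoc1, Smoc2, Twsg1 and Grem1 values without these libraries, or their range over all such fits, are given below.

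Smoc1 (ENSMUSG00000021136; GRCm38, chromosome 12, 81026808 to 81186414, plus strand) was at 10.8, 14.7 and 11.4 FPKM in Sp8 null embryos 1, 2 and 3. Wild-type embryos 1, 2 and 3 had 2.31, 2.08 and 1.29 FPKM. The lowest Sp8 null library lay above the highest wild-type library, as it does in one direction or the other for 29.8% of tested genes. The Sp8 null mean was 12.3 ± 2.09 FPKM against 1.89 ± 0.537 FPKM in wild type (SD, n = 3 each), a 6.5-fold ratio of means, and the log2 fold change of FPKM + 1 was 2.21 (SE 0.17). This scale understates the change of a gene with a low level, and with a pseudocount of 0.1 the log2 fold change was 2.66. With 1 of the 6 libraries left out it was 2.05 to 2.31. Smoc1 exceeded 63.0% to 71.2% of the tested genes in the Sp8 null libraries and 8.3% to 18.8% in the wild-type libraries, so it moved from the low end of expressed genes to above their middle. Smoc1 and Sp8 lie 37.66 Mb apart on the same chromosome. Whether DNA linked to the Sp8 allele took part in the difference was not tested.

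**Figure D1:**
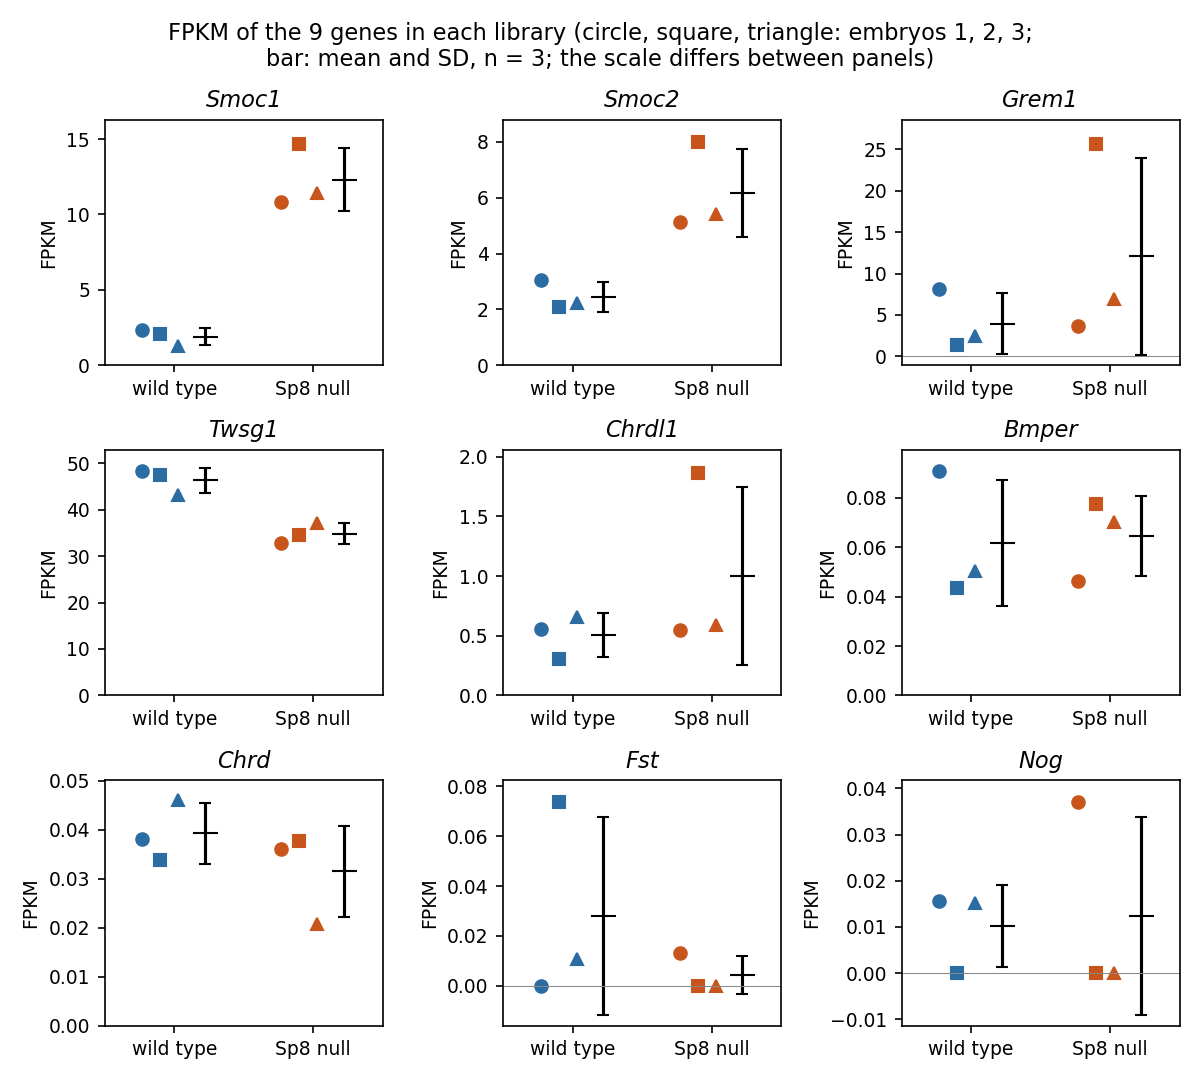
FPKM of each of the 9 genes (vertical axes, each starting at or below 0 and differing between panels) in the wild-type libraries (blue) and the Sp8 null libraries (orange), with circles, squares and triangles for embryos 1, 2 and 3 and bars for mean and SD (n = 3). Smoc1 lies between 10.8 and 14.7 in Sp8 null and between 1.29 and 2.31 in wild type, while the high Grem1 and Chrdl1 values in Sp8 null come from embryo 2.

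Smoc2 (ENSMUSG00000023886; chromosome 17, 14279506 to 14404790, plus strand), the close relative of Smoc1, also rose. It was at 5.12, 8.0 and 5.41 FPKM in Sp8 null embryos 1, 2 and 3, against 3.06, 2.07 and 2.22 FPKM in the wild-type libraries. Every library held it above 1 FPKM and the groups did not overlap. The Sp8 null mean of 6.17 ± 1.58 FPKM compared with 2.45 ± 0.532 FPKM for wild type (SD, n = 3 each), with a log2 fold change of 1.05 (SE 0.18, limma Benjamini-Hochberg adjusted p = 0.0163). The call was lost without wild-type embryo 2 (limma adjusted p = 0.0744), without wild-type embryo 3 (limma adjusted p = 0.0566) and when every gene above 0 was tested (limma adjusted p = 0.0792), the lowest over its 14 alternatives being 0.0138. Without Sp8 null embryo 2 the log2 fold change was 0.87 (limma adjusted p = 0.0263), and without wild-type embryo 1 it was 1.17 (limma adjusted p = 0.0214).

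The level of Smoc1 relative to Smoc2 differed between the genotypes. The ratio of Smoc1 to Smoc2 FPKM within a library was 2.12, 1.84 and 2.11 in Sp8 null embryos 1, 2 and 3. In the wild-type embryos, in the same order, it was 0.756, 1.01 and 0.581. Smoc2 was thus the higher of the pair in wild-type embryos 1 and 3, the genes were level in wild-type embryo 2, and Smoc1 was higher in every Sp8 null library. A ratio within a library does not depend on the scaling between libraries. It is given without a test, because Smoc1 was chosen for its rise.

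Twsg1 (ENSMUSG00000024098; chromosome 17, 65921972 to 65951226, minus strand) encodes Twisted gastrulation, which binds BMPs together with Chordin and can either hinder or help signalling. It had the highest level of the 9 genes in every library. Wild-type embryos 1, 2 and 3 had 48.3, 47.5 and 43.2 FPKM, and Sp8 null embryos 1, 2 and 3 had 32.8, 34.5 and 37.2 FPKM. All Sp8 null libraries were below all wild-type libraries, and the mean fell from 46.4 ± 2.73 to 34.8 ± 2.23 FPKM (SD, n = 3 each). The log2 fold change was -0.40 (SE 0.08, limma adjusted p = 0.026). The adjusted p was 0.05 or more in 7 of 15 alternatives, among them leaving out Sp8 null embryo 1 (limma adjusted p = 0.0761), Sp8 null embryo 2 (0.0736), wild-type embryo 1 (0.093) or wild-type embryo 2 (0.123). The direction held in all 15, with log2 fold changes of -0.45 to -0.31 and limma adjusted p-values of 0.0134 to 0.123. Smoc1 stood at 0.306 to 0.426 of the Twsg1 level in the Sp8 null libraries. In the wild-type libraries Smoc1 stood at 0.0298 to 0.0478 of that level. No test is given for this ratio, because Smoc1 was chosen for its rise.

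Grem1 (ENSMUSG00000074934; chromosome 2, 113746164 to 113758646, minus strand), which encodes Gremlin 1, was at 3.67, 25.7 and 6.96 FPKM in Sp8 null embryos 1, 2 and 3. Wild-type embryos 1, 2 and 3 had 8.12, 1.32 and 2.41 FPKM. The groups overlapped, since wild-type embryo 1 exceeded Sp8 null embryos 1 and 3. The Sp8 null mean was 12.1 ± 11.9 FPKM against 3.95 ± 3.65 FPKM for wild type (SD, n = 3 each), and the log2 fold change of 1.26 (SE 0.70) did not pass (limma adjusted p = 0.324, range over 15 alternatives 0.19 to 0.633). Without Sp8 null embryo 2 the log2 fold change was 0.55 (limma adjusted p = 0.633). It was 1.83 without wild-type embryo 1 (limma adjusted p = 0.19) and 0.84 without wild-type embryo 2 (limma adjusted p = 0.633).

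Grem1 was set beside 13 markers of limb mesenchyme, the tissue under the ectoderm. Of these, 9 were highest in Sp8 null embryo 2, as Grem1 was, and 7 were lowest in wild-type embryo 2, as Grem1 was. Prrx1, a homeobox gene of that mesenchyme, was at 13.6, 53.3 and 12 FPKM in Sp8 null embryos 1, 2 and 3. The wild-type libraries, in the same order, held 16.5, 3.92 and 9.93 FPKM. Both genes were highest in Sp8 null embryo 2, second in wild-type embryo 1 and lowest in wild-type embryo 2. The ratio of Grem1 to Prrx1 lay between 0.243 and 0.582 in all 6 libraries, and the genotypes overlapped in it. Other markers ran differently: Pdgfra, a receptor gene of mesenchyme named after its values were seen, was at 6.37, 19.5 and 6.01 FPKM in Sp8 null, below all of the 23.8, 19.8 and 21.4 FPKM of wild type. Its log2 fold change of -1.15 did not pass (limma adjusted p = 0.12), and without Sp8 null embryo 2 it was -1.65 and passed (limma adjusted p = 0.000412, range over 15 alternatives 0.000412 to 0.307). The genotypes' ranges of summed mesenchyme markers overlapped, at 53.2 to 177 FPKM in Sp8 null against 46.5 to 89.9 FPKM in wild type. All 13 of these markers were above 0 in every library and 10 were tested. Of these, 5 had a higher and 5 a lower mean in Sp8 null, against 61.3% lower over all tested genes. Limma called 1, Lmx1b, a gene of dorsal mesenchyme, a share near the 6.83% of all tested genes. Lmx1b was at 11.9, 17.7 and 11.5 FPKM in Sp8 null, against 7.34, 5.16 and 5.35 FPKM in wild type (log2 fold change 1.07, SE 0.18, limma adjusted p = 0.0166). Its call held without Sp8 null embryo 2 (0.88, limma adjusted p = 0.0246) and without wild-type embryo 1 (1.21, 0.0195), and was lost without wild-type embryo 2 (0.0768), without wild-type embryo 3 (0.0581) and when every gene above 0 was tested (0.0817). Fewer cells of a type and less RNA per cell cannot be told apart in such bulk samples.

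Smoc1 and Smoc2 were also highest in Sp8 null embryo 2, and so was Lmx1b. Each of these genes was higher in every Sp8 null library than in any wild-type library. Col3a1 and Osr1, also mesenchyme markers, showed the same. Col3a1 was at 7.61 to 34.4 FPKM in Sp8 null against 2.19 to 7.43 FPKM in wild type (limma adjusted p = 0.163). Osr1, which did not reach the filter, was at 0.874 to 1.88 against 0.116 to 0.723 FPKM. Of the other markers, Pdgfra alone was lower in every Sp8 null library, and the genotypes overlapped in the rest. The order of Smoc1, Smoc2 and Lmx1b over the other libraries differed from that of Prrx1. Wild-type embryo 1 had more Prrx1 and a higher mesenchyme sum (89.9 FPKM) than Sp8 null embryo 1 (60.7 FPKM) or Sp8 null embryo 3 (53.2 FPKM). Smoc1 was at 2.31 FPKM in that wild-type library and at 10.8 and 11.4 FPKM in those Sp8 null libraries. Smoc2 was 3.06 FPKM there, against 5.12 and 5.41 FPKM. Without Sp8 null embryo 2 the log2 fold change of Smoc1 was 2.08. The part of mesenchyme RNA in the levels of these genes was not tested.

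**Figure D2:**
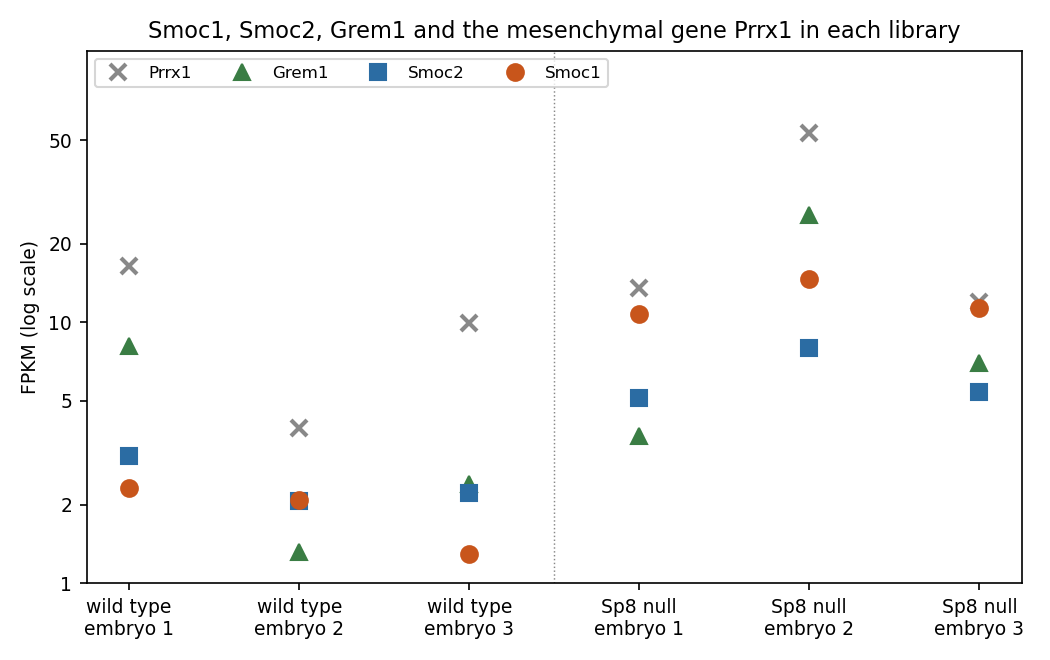
FPKM (vertical axis, log scale) of Smoc1, Smoc2, Grem1 and the mesenchymal gene Prrx1 in each library (horizontal axis, wild type to the left of the dotted line and Sp8 null to the right). Prrx1 and Grem1 are both highest in Sp8 null embryo 2 and lowest in wild-type embryo 2, while Smoc1 is at 10.8 FPKM or more in every Sp8 null library and at 2.31 FPKM or less in every wild-type library.

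The other 5 genes were low in all libraries. Chrdl1, which encodes Chordin-like 1, reached 1 FPKM in 1 library, Sp8 null embryo 2 (1.86 FPKM), and lay between 0.301 and 0.659 FPKM in the other 5. Bmper, which encodes a BMP-binding endothelial regulator, lay between 0.0437 and 0.0911 FPKM, and Chrd, which encodes Chordin, between 0.0207 and 0.046 FPKM. Nog, which encodes Noggin, was at most 0.0371 FPKM and was listed at 0 in 3 libraries, and Fst, which encodes the activin and BMP antagonist Follistatin, was at most 0.0735 FPKM and was listed at 0 in 3 libraries. In each of the 5 the genotypes overlapped. The exons of Chrd overlap those of Thpo on the other strand and those of Fst overlap an antisense gene, and the use of strand was not given in the sources used here, so their reads may come from either gene.

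None of these 5 reached the filter, so none was tested in the fit above. When every gene above 0 was tested, none of the 5 was called (limma adjusted p = 0.649 to 0.967). How large a difference could be detected at these levels was not tested, so the missing calls do not show that the genotypes are alike. The authors' deposited table gave group means as a normalized signal. They were 0.62 in wild type and 0.8 in Sp8 null for Nog, and 2.45 and 0.71 for Fst. In the same order they were 6.1 and 3.78 for Chrd, 8.91 and 9.56 for Bmper, and 62.21 and 134.57 for Chrdl1.

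In all, 3 of the 8 genes listed beside Smoc1 were tested and 2 were called by limma, Smoc2 higher and Twsg1 lower, against 6.83% of all tested genes. The list was drawn up with these results known, so this count is a description. In wild type the mean levels ran from Twsg1 (46.4 FPKM) to Grem1 (3.95), Smoc2 (2.45), Smoc1 (1.89) and Chrdl1 (0.506), with the other 4 below 0.1 FPKM. The libraries of Grem1, Smoc2 and Smoc1 overlapped one another in wild type, so their order there is not beyond the spread. In Sp8 null the means ran from Twsg1 (34.8 FPKM) to Smoc1 (12.3), Grem1 (12.1), Smoc2 (6.17) and Chrdl1 (0.998). There the libraries of Smoc1 lay above those of Smoc2, and those of Grem1 spread across both.

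The authors' deposited table compared the same libraries and gave signed fold changes of 4.54 for Smoc1 and 2.37 for Smoc2. Twsg1 stood at -1.3 and Grem1 at 1.22 in the authors' deposited table, with a p-value of 0.126 for Grem1. For Chrdl1 the authors' deposited table listed 1.37 with a p-value of 0.0561. The directions of these 5 match those of the mean FPKM. For Smoc1, Smoc2, Grem1 and Chrdl1, but not Twsg1, the deposited fold change was smaller than the ratio of the deposited group means. Those means were 252.31 in wild type and 1681.79 in Sp8 null for Smoc1, and 621.76 and 1963.66 for Grem1. The deposited p-values of Smoc1, Smoc2 and Twsg1 were printed as 0 in the authors' deposited table.

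The other secreted BMP antagonists were read from a list of 12 genes, of which 5 were tested and 1 was called, against 6.83% of all tested genes. That one was Sostdc1, a BMP and Wnt antagonist of epithelia also called Ectodin or Wise. Its levels of 23.2, 19.3 and 18.6 FPKM in Sp8 null all lay above the 14.4, 13.5 and 11.9 FPKM of the wild-type libraries, with a log2 fold change of 0.58 (SE 0.11, limma adjusted p = 0.0229). The call was lost without Sp8 null embryo 1 (limma adjusted p = 0.0586), wild-type embryo 2 (0.0905) or wild-type embryo 3 (0.0653), and when every gene above 0 was tested (0.0811), the lowest over 15 alternatives being 0.0156. It held without Sp8 null embryo 2 (log2 fold change 0.61, limma adjusted p = 0.0478) and without wild-type embryo 1 (0.64, 0.0437). Fstl1, a secreted relative of both Follistatin and SPARC with the highest level of this list, was at 31.0, 42.0 and 32.9 FPKM in Sp8 null, against 49.2, 43.7 and 42.8 FPKM in wild type (limma adjusted p = 0.123). The median log2 fold change of the 5 tested antagonists was -0.15, against -0.06 over all tested genes.

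Of 8 further modulators, chordin proteinases and co-receptors, 5 were tested and limma called 0, with 2 at an unadjusted p under 0.05. Over all 12133 tested genes, 2914 had an unadjusted limma p under 0.05, the background for such counts here. Rgma, a BMP co-receptor with the highest level among them, overlapped between the genotypes (log2 fold change 0.33, SE 0.14, limma adjusted p = 0.208). Of 6 SPARC family genes other than the Smoc genes, 3 were tested and limma called 0, with 2 at an unadjusted p under 0.05. Sparc itself was at 72.2 to 83.5 FPKM in Sp8 null, against 77.7 to 88.2 FPKM in wild type (log2 fold change -0.06, SE 0.08, limma adjusted p = 0.695). Of 10 heparan sulfate core proteins 8 were tested and limma called 0, with 0 at an unadjusted p under 0.05, and Gpc3, the most abundant glypican, had a log2 fold change of -0.25 (SE 0.13, limma adjusted p = 0.281). Without Sp8 null embryo 2, Fstl1 and Gpc3 were called. Without wild-type embryo 1, Rgmb was called.

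Among 19 BMP, GDF and activin ligands 6 were tested, all with a lower mean in Sp8 null, as for 61.3% of all tested genes. Limma called 2 of them lower, against 5.15% of all tested genes. Bmp5, 1 of the 2, reached 1 FPKM only in wild-type libraries, so it was tested only because it was high there. Among the other tested ligands only Bmp4 was called. Bmp4 was at 132, 123 and 122 FPKM in the wild-type libraries, against 41.1, 32.5 and 39.4 FPKM in Sp8 null (log2 fold change -1.72, SE 0.10, limma adjusted p = 0.000124). It was -1.62 without Sp8 null embryo 2 and -1.68 without wild-type embryo 1, called in both. Bmp5 was at 0.476, 0.69 and 0.69 FPKM in Sp8 null, against 1.17, 1.65 and 2.3 FPKM in wild type (log2 fold change -0.72, SE 0.17, limma adjusted p = 0.0496), and 8 of its 11 alternatives gave 0.05 or more (range 0.0408 to 0.154). These include leaving out Sp8 null embryo 1 (limma adjusted p = 0.131), embryo 2 (0.0962) or embryo 3 (0.0816). The ratio of Bmp4 to Smoc1 FPKM was 57.1 to 94.6 over the wild-type libraries and 2.21 to 3.79 over the Sp8 null libraries. It carries no test, because Smoc1 was chosen for its rise, which lowers the ratio in Sp8 null. The ratio of Twsg1 to Bmp4 was 0.355 to 0.387 in wild type and 0.798 to 1.06 in Sp8 null, although Twsg1 itself fell.

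Of 12 receptors and Smads 10 were tested and 1 was called, a share near the 6.83% of all tested genes. This was Smad1, a transcription factor of the BMP pathway, which was at 15.3, 15.9 and 14.6 FPKM in Sp8 null, all above the wild-type values of 10.7, 10.6 and 9.27 FPKM, with a log2 fold change of 0.54 (SE 0.08, limma adjusted p = 0.0116). Without wild-type embryo 2 its limma adjusted p was 0.0513, the highest over 15 alternatives, and the lowest was 0.00532. It was 0.51 without Sp8 null embryo 2 (limma adjusted p = 0.0399) and 0.58 without wild-type embryo 1 (0.031). Bmpr1a, the most abundant receptor of the list, had a log2 fold change of -0.16 (SE 0.07, limma adjusted p = 0.207). Of the 10 BMP response genes 8 were called, all lower in Sp8 null, against 5.15% of all tested genes. The called genes were Bambi (-2.57), Msx2 (-1.72), Id1 (-1.46), Id3 (-1.29), Msx1 (-1.23), Atoh8 (-0.83), Id2 (-0.72) and Id4 (-0.69), each with its log2 fold change. With 1 library left out their number was 4 to 7. Bambi and Id4, like Smad6, which was not called, reached 1 FPKM only in wild-type libraries, as did Bmp5, so these genes were tested only because they were high there. Of the other 7 response genes 6 were called.

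**Figure D3:**
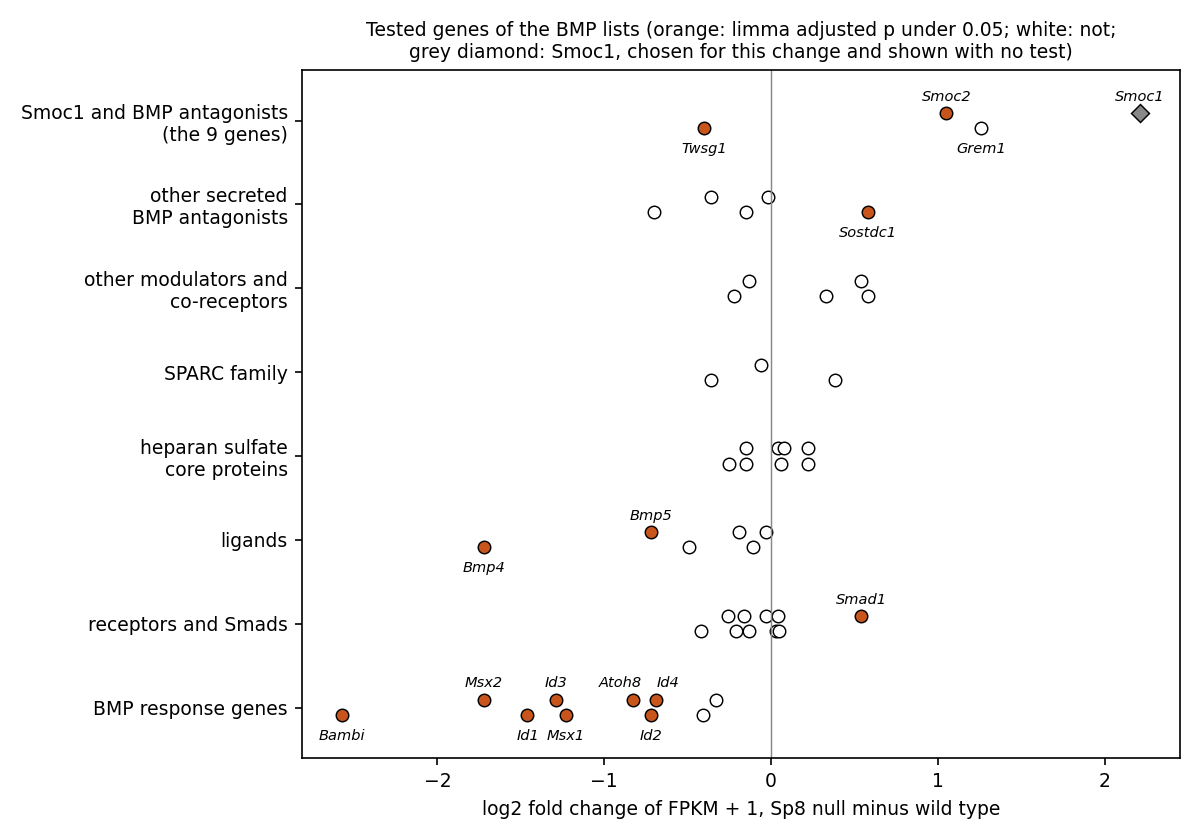
Log2 fold change of FPKM + 1 (horizontal axis, Sp8 null minus wild type) of each tested gene, grouped by list (vertical axis). Orange points passed a limma adjusted p of 0.05, white points did not, and the grey diamond is Smoc1 at 2.21, shown with no test. Sostdc1 and Smad1 lie to the right of 0 beside Smoc2, while Bmp4, Bmp5, Twsg1 and 8 BMP response genes lie to the left.

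The genes most like Smoc1 were sought by Pearson's r of log2(FPKM + 1) over the 6 libraries among the other 12132 tested genes. The 5 highest were Gm26751, a lincRNA gene (r = 0.997), Smad1 (0.994), Antxr1 (0.993), Mt1, a metallothionein (0.991), and Irx5, an Iroquois homeobox gene (0.991). The r takes no account of the size of a difference. The ratios of means, Sp8 null over wild type, were 1.24, 1.5, 1.11, 2.78 and 3.21 in that order, against 6.5 for Smoc1. Antxr1 was not called (limma adjusted p = 0.222). A total of 342 genes had an r of 0.9 or more. The r of Smoc2 was 0.961, that of Grem1 0.648 and that of Twsg1 -0.893. Irx5 was at 1.81, 1.8 and 1.63 FPKM in Sp8 null, against 0.675, 0.605 and 0.352 FPKM in wild type, so it passed the filter only through the Sp8 null libraries. When each library was set against its group mean, which removes the genotype difference, the 5 highest were Cltb, Bscl2, Apoa1bp, Bcl7c and Mxi1 (r = 0.993 to 0.998), and 323 genes had an r of 0.9 or more. Smoc2 was then at 0.735, Grem1 at 0.679 and Twsg1 at 0.56. These values describe 6 libraries and carry no test.

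**Figure D4:**
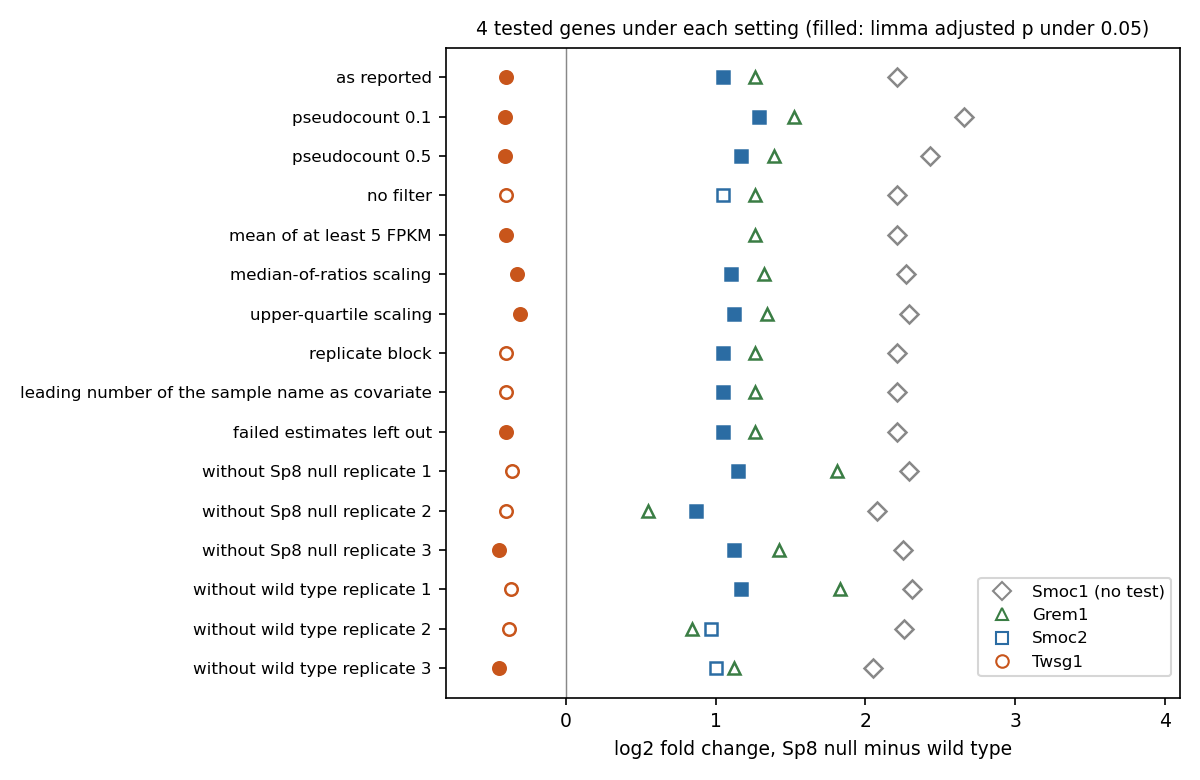
Log2 fold change (horizontal axis, Sp8 null minus wild type) of the 4 tested genes under the reported setting and each of the 15 alternatives (vertical axis), with filled symbols at a limma adjusted p under 0.05 and Smoc1 shown with no test. Smoc1 stays between 2.05 and 2.66, Smoc2 between 0.87 and 1.29, Grem1 between 0.55 and 1.83 and Twsg1 between -0.45 and -0.31.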

How the data were processed

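The authors deposited 1 table with FPKM per library, and, for each gene, a normalized signal (mean) per group, a p-value and a fold change as a signed score, on the gene models of Ensembl build 87, per the file headers. TopHat2, Cufflinks, DESeq2, SAMtools, FastQC and the GRCm38 build are listed in the submitters' processing notes with no role or version. Whether the deposited p-value was adjusted, and the use of strand, are not given in the sources used here. Depth in reads is unknown, so no counting interval is given. The columns of group means, headed control and sample, were read as wild type and Sp8 null in that order.

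Genes that reached 1 FPKM in 3 or more libraries were tested with limma 3.58.1 in R 4.3.3 on log2(FPKM + 1), with genotype as the only term and a mean-variance trend. P-values were two-sided and adjusted by Benjamini-Hochberg over all 12133 tested genes, with a threshold of 0.05. An estimate had the status FAIL for 9 of these genes, none of them named here. The fit was tested on simulated data. Members, lists and tests were chosen with earlier results of these data known. Named genes were the 9 members, Sp8, the called genes and the most abundant tested gene of each BMP pathway list, and the 5 genes most correlated with Smoc1. Cell type markers are given by list with their called members, and others of them are named as examples chosen after their values were seen. Coordinates are from GENCODE M21 on GRCm38. Alternatives were the pseudocount, the filter, the scaling, a block on embryo number, the leading number of the sample name, failed estimates and each library left out.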

Additional observations from a re-analysis of the deposited data

How the results depend on the processing

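The number of called genes was 829, and 2 of the 8 members beside Smoc1 were among them. With every gene above 0 tested, 342 genes and 0 of these members were called (limma), with 2 members at an unadjusted p under 0.05. With a mean of at least 5 FPKM required, 1 member was called, Twsg1, since Smoc2 fell below the filter. With the first number of each sample name as a covariate 545 genes and 1 member, Smoc2, were called. Leaving out 1 library gave 213 to 665 called genes and 0 to 2 called members, and both were lowest without wild-type embryo 2. Embryo numbers gave no pairing of the libraries, since libraries that share a number deviated from the group means with correlations of -0.1643, -0.1449 and -0.0699. With the embryo number as a replicate block 328 genes and 1 member, Smoc2, were called. Twsg1, called without the block, had a limma adjusted p of 0.118 with it. The causes were not tested. The 4 tested members kept their direction under each of the 15 alternatives that tested them. Scaling shifted the median log2 fold change of all tested genes by 0.064 or 0.085. Members below 0.1 FPKM lie at the limit of what these libraries can show.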

Other observations

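A pair of listed BMP modulators was named after their values were seen. Kcp, which encodes a kielin and chordin-like protein, was at 0.863, 4.68 and 1.46 FPKM in Sp8 null embryos 1, 2 and 3 and at 2.15, 0.257 and 1.16 FPKM in wild-type embryos 1, 2 and 3. Nbl1, which encodes the antagonist DAN, was at 0.523, 2.21 and 0.719 FPKM in Sp8 null and at 0.47, 0.181 and 0.185 FPKM in wild type. The genotypes overlapped in Kcp and not in Nbl1, which did not reach the filter. Both were highest in Sp8 null embryo 2, the library with the highest sum of mesenchyme markers, and lowest in wild-type embryo 2. Sost, a sclerostin gene named after its values were seen, was at 7.79, 7.83 and 11.6 FPKM in Sp8 null and 12.8, 14.8 and 18.1 FPKM in wild type, without overlap and without a call (log2 fold change -0.70, SE 0.17, limma adjusted p = 0.0571). It was called with a mean of at least 5 FPKM required (limma adjusted p = 0.0494), with the embryo number as a block (0.0265) and without Sp8 null embryo 3 (0.0235), the highest over 15 alternatives being 0.174.

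Other cell types were read from short marker lists. Of 8 endothelial markers 7 stayed under 1 FPKM in every library, as did all 7 macrophage markers, all 5 muscle progenitor markers and 3 of 5 neural crest markers. Among these low genes, Pecam1, Cdh5, Cx3cr1 and Tyrobp were higher in every Sp8 null library than in any wild-type library. Flt1 was lower in every Sp8 null library, and the genotypes overlapped in the rest. None of these low genes reached the filter. Of the neural crest list, Ngfr was the one tested and was called higher, from 3.53, 4.28 and 2.46 FPKM in wild type to 9.42, 6.7 and 9.41 FPKM in Sp8 null (log2 fold change 1.11, SE 0.18, limma adjusted p = 0.0152), a call lost without Sp8 null embryo 1 (limma adjusted p = 0.0576) and when every gene above 0 was tested (0.0777). Sox10 and Foxd3 of that list were at most 0.102 and 0.0109 FPKM. Among the surface ectoderm markers Tfap2a was higher (log2 fold change 0.52, limma adjusted p = 0.0163) and Epcam lower (log2 fold change -0.53, limma adjusted p = 0.0313). Tfap2a was not called without wild-type embryo 1 (limma adjusted p = 0.0608), 2 (0.056) or 3 (0.0546), with limma adjusted p-values of 0.0121 to 0.0756 over 15 alternatives. Epcam was not called in 8 of 15 alternatives, with limma adjusted p-values of 0.0159 to 0.132. These include the fits without Sp8 null embryo 1 (0.0856) or 2 (0.0585) and without wild-type embryo 1 (0.0719), 2 (0.132) or 3 (0.0693).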
